A study of Homo sapiens with 4 samples.

Results

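In PANC-1, an established line of human pancreatic ductal adenocarcinoma cells, circular RNAs (circRNAs) were counted after 10 µM thymoquinone (TQ) for 24 h and in untreated cells. TQ is a quinone of black seed (Nigella sativa). The control is labelled as untreated, and the labels name no vehicle. There was 1 library of each kind, so that every PANC-1 value below compares these 2 libraries and not the conditions. No p-value was computed. MiaPaCa-2, another pancreatic cancer line, gave 1 control library and 1 library after 20 µM TQ for 24 h. Those 2 are set beside PANC-1 below and entered the library scales. The members are the circRNA identifiers with at least 10 counts summed over the 2 PANC-1 libraries. They number 2289 of the 21894 identifiers with a PANC-1 count and of the 80821 listed. They hold 28581 of the 48631 counts of the control library (58.8%) and 40130 of the 67964 counts of the TQ library (59.0%).

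A circRNA forms when the spliceosome joins the end of an exon back to the start of the same exon or of one upstream. The closed ring has no free end, which protects it from exonucleases, and a read over the back-splice junction identifies it. Many circles come from protein-coding host genes, and their level need not follow that of the linear messenger RNA. Ribonuclease R had removed linear RNA here, so that host messenger RNAs and the markers that define a cell line were not measured.

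The junctions of 4 members show what was counted, and they were chosen because their exons are well known and 3 of them are among the 15 members with most counts. Each line joins the last 15 bases of a circle, in lower case, to its first 15 bases, in capitals, 5′ to 3′ on the transcript strand. The exons that form each circle are those it is known for, and their positions and sequences come from GENCODE 29 (GRCh38), since the count table gives neither coordinates nor sequences.
HIPK3 (hsa_circ_0000284): atctcggtactacagGTATGGCCTCACAAG
CAMSAP1 (hsa_circ_0001900): ttctggatcaacaagATAACATCCCTGAGG
SETD3 (hsa_circ_0000567): tataaagtcatccagTCAGAAAAATGGGTA
ZKSCAN1 (hsa_circ_0001727): tcttacagtcacgagGAATAGTAAAGAAAC
The HIPK3 circle is exon 2 alone, at chr11:33286413-33287511 on the plus strand, with 1099 bases of which 1097 are coding, so that it carries the start codon near the junction. That of CAMSAP1 spans exons 2 to 3 at chr9:135881633-135883078 on the minus strand, with 425 exon bases, all coding. The SETD3 circle spans exons 2 to 6 at chr14:99458279-99465813 on the minus strand, with 683 exon bases. The ZKSCAN1 circle spans exons 2 to 3 at chr7:100023419-100024307 on the plus strand, with 668 exon bases, 88 of them untranslated.

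Ratios are TQ counts over control counts, divided by 1.38, the relative scale of the TQ library. Each ratio has an exact 99% interval that covers counting error only. A member was called higher or lower where its ratio was at least 2 or at most 0.5 and that interval excluded 1.

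The most abundant circles of PANC-1 stood within 2-fold of each other in the 2 libraries. The 15 members with most counts had ratios from 0.714 to 1.18, with a median of 0.938, and 0 of them were called. The intervals of 3 of the 15 (20%) excluded 1, among them that of hsa_circ_0000448. It had 205 and 214 counts and a ratio of 0.755 (99% interval 0.585 to 0.977). The leading one, hsa_circ_0001006, had 546 control and 891 TQ counts, a ratio of 1.18 (99% interval 1.03 to 1.36). The circle of HIPK3, a serine/threonine kinase gene, had 383 and 531 counts, a ratio of 1.003 (0.843 to 1.20). The circle of SETD3, which encodes the methyltransferase of an actin histidine, had 148 and 146 counts. Its ratio of 0.714 (0.525 to 0.971) was the lowest of these 15 and its interval lay below 1, but it was above the limit of 0.5.

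Among the 15 members with most counts, the other circles named by host differed less from 1 than that of SETD3. For CAMSAP1, a gene for a protein that binds the minus ends of microtubules, the circle had 143 and 153 counts and a ratio of 0.774 (0.570 to 1.05). The circle of CORO1C, an actin-binding coronin gene, had 130 and 192 counts and a ratio of 1.07 (0.794 to 1.45). The circle of XPO1, the nuclear export receptor gene, had 114 and 157 counts and a ratio of 0.997 (0.722 to 1.38). That of UBXN7, a gene for an adaptor between ubiquitin and the p97 ATPase, had 106 and 154 counts and a ratio of 1.05 (0.756 to 1.47). Of the 10 identifiers with most counts in control, 8 were among the 10 with most counts in TQ, and of the top 100 in each library 73 were shared. The 10 leading identifiers held 6.05% of control counts and 5.80% of TQ counts.

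By abundance, the spread of the ratios narrowed and the zeros ended. All 25 members with at least 200 counts lay within 2-fold, from 0.651 to 1.36. Of the 65 members with 100 to 199 counts, 62 lay within 2-fold, and of the 1228 members with 10 to 19 counts and none at 0, 822 did (66.9%). The SD of the log2 ratio was 1.09 for 10 to 19 counts, 0.76 for 20 to 49, 0.55 for 50 to 99, 0.49 for 100 to 199 and 0.27 for 200 or more. Counting error alone, approximated from the reciprocals of the 2 counts, would give 0.88, 0.58, 0.37, 0.27 and 0.17 in the same order. The ratios of 2 single libraries thus spread more than this approximation gives in all 5 groups of abundance. With 1 library per condition, differences between libraries and effects of TQ cannot be told apart.

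**Figure D1:**
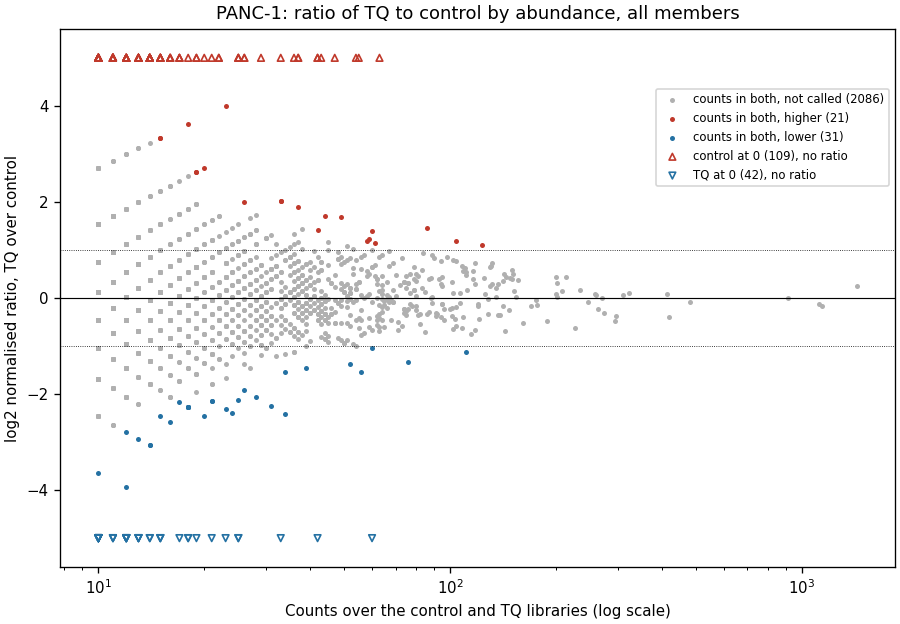
Each point is 1 of the 2289 members, with its counts over the control and TQ libraries on a log axis and the log2 normalised ratio of TQ over control on the other; dotted lines mark 2-fold. Grey points were not called, red and blue ones were higher or lower in TQ, and open triangles at the margins are members at 0 in control (109) or in TQ (42), which have no ratio. Members with 200 or more counts sit between 0.651 and 1.36, inside the dotted lines.

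**Figure D2:**
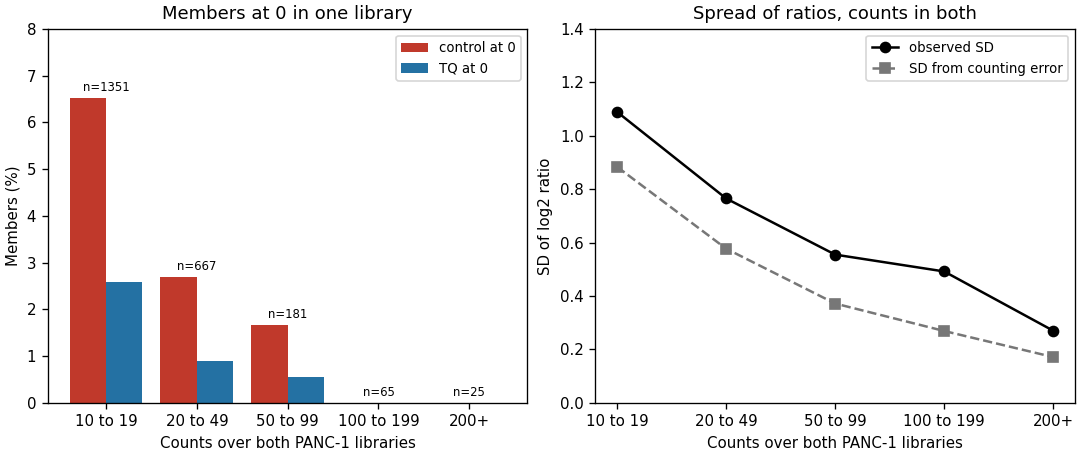
Members are grouped by counts over both PANC-1 libraries. Bars give the percentage of members at 0 in control or at 0 in TQ, from 6.51% and 2.59% at 10 to 19 counts to 0 from 100 counts on; n is the number of members. Lines give the SD of the log2 ratio of members with counts in both libraries, observed and from counting error alone, and the observed SD is the higher one in all 5 groups.

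By the rule above, TQ counts were higher for 130 of the 2289 members (5.68%) and lower for 73 (3.19%). Members with counts in both libraries and members at 0 in one of them are described apart, since 151 of these 203 calls rest on a zero. Among the 2138 members with counts in both, 21 (0.982%) were higher and 31 (1.45%) were lower, and the median ratio was 0.969. A 99% interval may miss the true ratio in up to 1% of cases from counting error alone. Of these 2138 intervals, 62 (2.90%) excluded 1. This share leaves out the 151 members at 0 in one library, whose intervals all excluded 1. A single call near the limit therefore carries little weight. With an exact 95% interval in place of the 99% one, the calls among the 2138 members were 62 higher and 83 lower. Among these 2138 members the balance turned with the scale, to 31 higher and 27 lower with DESeq2 size factors. With TMM over every identifier with a count it was 42 and 19, so that this balance shows no direction of change. Over all 2289 members, more were called higher than lower on each scale, from 102 and 78 to 151 and 61. Those numbers include the calls that rest on a zero, which follow from the rule itself.

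The NRIP1 circle (hsa_circ_0004771) was the one higher call among 91 circBase circles that were listed with their host genes. NRIP1 encodes a corepressor of nuclear receptors and lies at chr21:14961235-15065936 (GRCh38, ENSG00000180530.10, minus strand). Its circle had 18 control and 68 TQ counts, a ratio of 2.73 (1.39 to 5.90). In MiaPaCa-2, the other pancreatic cancer line of the study, which received 20 µM TQ, there were 1 control and 2 TQ counts, too few for a ratio.

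Other higher circles have circBase numbers, from the public catalogue of circRNAs, but were not on that list, so that their hosts are not named. The count table itself pairs no circle with a host gene. The more abundant of them had ratios just over 2. The circle hsa_circ_0008301 had 31 control and 92 TQ counts, a ratio of 2.15 (1.26 to 3.84), and was the most abundant of the 21. The circle hsa_circ_0001278 had 25 and 79 counts, a ratio of 2.29 (1.27 to 4.38). With 9 and 40 counts, hsa_circ_0006229 had a ratio of 3.22 (1.27 to 10.02). The scarce ones had the largest ratios and the widest intervals: hsa_circ_0004368, with 1 and 22 counts, had 15.9 (1.85 to 3320). Over the 21, control counts ran from 1 to 31 with a median of 6, and TQ counts from 14 to 92 with a median of 31.

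The FARSA circle (hsa_circ_0000896) was the one lower call among the circles listed with their host genes. FARSA encodes the alpha subunit of the phenylalanyl-tRNA synthetase of the cytosol and lies at chr19:12922479-12934037 (GRCh38, ENSG00000179115.10, minus strand). Its circle had 49 control and 27 TQ counts, a ratio of 0.399 (0.205 to 0.750), which is 2.51-fold lower with TQ. The MiaPaCa-2 libraries held 25 control and 18 TQ counts, a ratio of 1.73 (0.724 to 3.98) whose interval included 1. With DESeq2 size factors that ratio lay on the other side of 1, at 0.893 (0.374 to 2.06).

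Most lower circles were scarce in both libraries. The most abundant of the 31, hsa_circ_0005598, had 68 and 43 counts, a ratio of 0.458 (0.269 to 0.765), and is named after its values were seen. The circle hsa_circ_0004405 had 38 and 18 counts, a ratio of 0.343 (0.151 to 0.727). With 24 and 7 counts, hsa_circ_0023179 had a ratio of 0.211 (0.0548 to 0.634). The interval that lay farthest below 1 was that of ciRNA1347, with 27 and 7 counts and a ratio of 0.188 (0.0493 to 0.551). Identifiers that start with ciRNA usually denote intronic circles. Over the 31, control counts ran from 9 to 68 with a median of 16, and TQ counts from 1 to 43 with a median of 5.

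**Figure D3:**
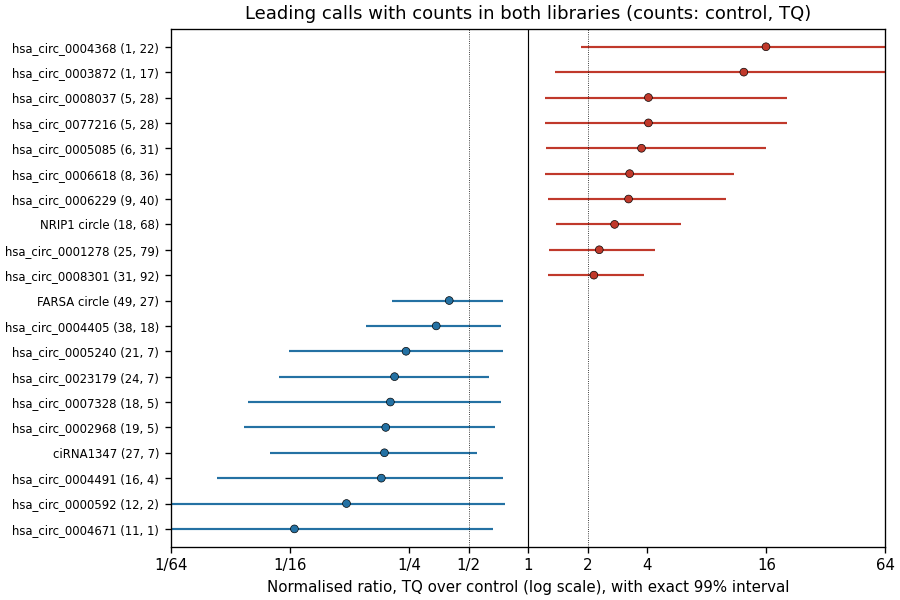
Normalised ratio of TQ over control on a log axis with exact 99% intervals, for the 10 higher (red) and 10 lower (blue) members with counts in both libraries whose interval lay farthest from 1. Counts in control and TQ stand beside each name, dotted lines mark ratios of 0.5 and 2, and intervals that run past the axis are clipped. The NRIP1 circle lies at 2.73 and the FARSA circle at 0.399, and the scarcest circles have the widest intervals.

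A list of 91 circBase circles whose host gene is known had 76 in the table and 42 among the members. Of the other listed circles, 20 had 1 to 9 counts and 14 had 0 in both PANC-1 libraries. Of the 42, 1 was higher (2.38%) and 1 lower (2.38%), where 0.982% and 1.45% of all members with counts in both libraries were called. Their median ratio was 1.01, beside 0.969 for all members with counts in both, with 23 above 1 and 19 below. Each of these shares is a single circle.

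Circles of genes for signalling, adhesion and the cytoskeleton had the most members, 17, with 0 called and ratios from 0.322 to 2.24. The circle of MEMO1, a gene for a mediator of cell motility downstream of ERBB2, had 51 control and 100 TQ counts, a ratio of 1.42 (0.906 to 2.27). The circle of ERBIN, whose protein binds ERBB2 at the basolateral membrane, had 11 and 34 counts, a ratio of 2.24 (0.915 to 6.32). With TMM over every identifier with a count as the scale, its ratio of 2.57 (1.05 to 7.26) would be called. The ERBB2 circle had 5 and 7 counts, a ratio of 1.01 (0.191 to 6.28), so that its interval allows large differences either way. The circle of FAT1, an atypical cadherin gene, had 48 counts in each library and a ratio of 0.724 (0.418 to 1.25). That of the receptor tyrosine kinase gene EPHB4 had 37 and 43 counts, a ratio of 0.841 (0.461 to 1.55).

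Among the 8 circles of genes for transcription and chromatin, the NRIP1 circle was called and the others ranged from 0.310 to 3.86. The circle of FOXK2, a forkhead factor gene, had 41 and 89 counts and a ratio of 1.57 (0.961 to 2.64). The circle of SFMBT2, a Polycomb gene, had 3 and 16 counts, a ratio of 3.86 (0.822 to 38.2). The circle of CDYL, a chromodomain gene, had 2 and 10 counts, a ratio of 3.62 (0.539 to 80.0). The last 2 rest on so few control counts that their intervals include 1. The circle of BPTF, a gene of the NURF chromatin remodeller, had 7 and 3 counts, a ratio of 0.310 (0.0278 to 2.01).

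The 7 circles of genes for RNA and protein handling included the lower FARSA circle. The circle of EIF4G3, a translation initiation factor gene, had 26 and 49 counts, a ratio of 1.36 (0.720 to 2.69). That of RBM33, a gene for an RNA-binding protein, had 54 and 48, a ratio of 0.643 (0.377 to 1.09). The circle of USP25, a deubiquitinase gene, had 2 and 15 counts, a ratio of 5.43 (0.916 to 115). It too would be called with TMM over every identifier, at 6.24 (1.05 to 132). The 7 circles of genes for membranes and trafficking ran from 0.482 to 1.09, with 0 called. The one with most counts was that of FNDC3B, with 84 and 117 counts and a ratio of 1.01 (0.692 to 1.48).

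Circles that have been studied in pancreatic cancer gave 5 members of 10 listed, with 0 called and ratios from 0.531 to 1.81, the FOXK2 circle among them. The LDLRAD3 circle, with 28 and 70 counts, had the highest ratio, 1.81 (1.01 to 3.39). Its interval excluded 1 while the ratio was under 2, and it would be called with TMM over every identifier, at 2.08 (1.16 to 3.89). The circle of MBOAT2, an acyltransferase gene, had 43 and 48 counts, a ratio of 0.808 (0.460 to 1.43). The circle of BFAR, a gene for a regulator of apoptosis, had 17 counts in each library, a ratio of 0.724 (0.279 to 1.88). That of STX6, a syntaxin gene of the trans-Golgi network, had 15 and 11, a ratio of 0.531 (0.168 to 1.58).

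**Figure D4:**
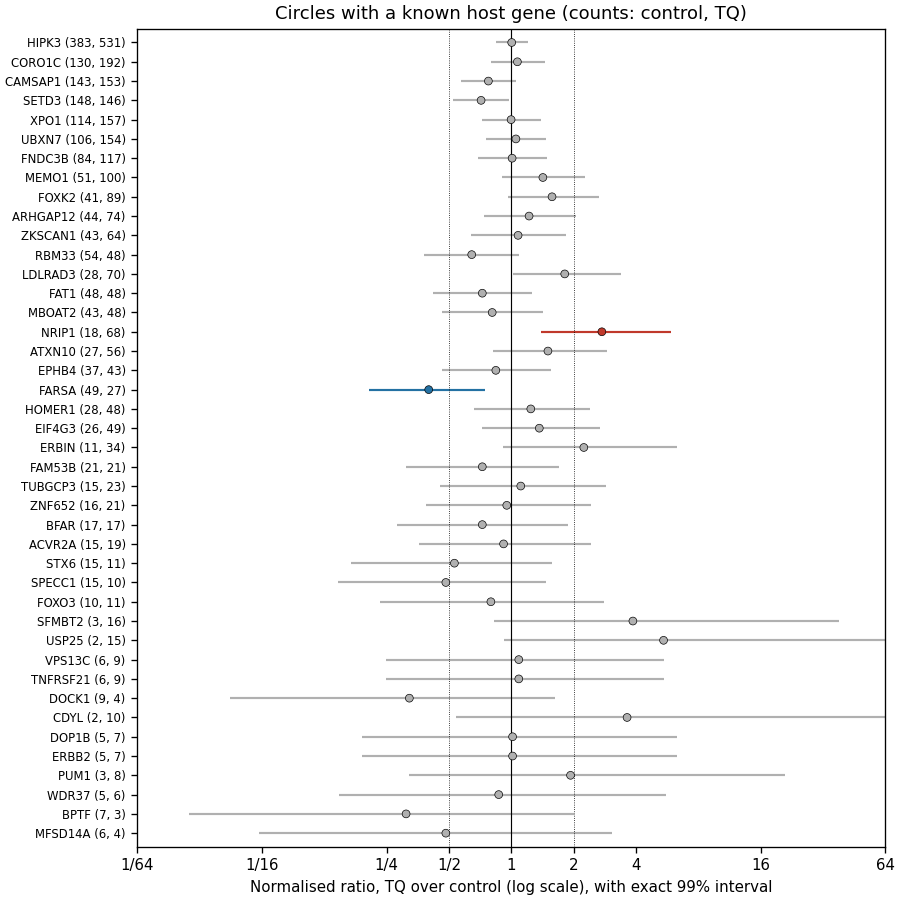
Normalised ratio of TQ over control on a log axis with exact 99% intervals for the 42 members on the list of known host genes, from the most abundant at the top to the scarcest. Counts in control and TQ stand beside each host gene, dotted lines mark ratios of 0.5 and 2, and intervals that run past the axis are clipped. The NRIP1 circle (red, 2.73) and the FARSA circle (blue, 0.399) are the called ones, and intervals widen toward the bottom.

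At 0 in the control library were 109 members, with 10 to 63 counts in TQ and a median of 13. At 0 in the TQ library were 42 members, with 10 to 60 counts in control and a median of 12. Their calls follow from the rule itself, since with 10 counts against 0 the 99% interval already began at 1.04 or ended at 0.506. All 151 were called, none of them had a known host on the list, and 0 of the 90 members with at least 100 counts was at 0 in either library. Below 10 counts the limits differed, since 7 control counts against 0 would suffice for a lower call, while 9 TQ counts against 0 would not suffice for a higher one. The TQ library was the deeper one, with 67964 counts beside 48631 in control. The part of depth in the 109 and 42 zeros was not tested.

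Some of these zeros stood against sizeable counts. The circle hsa_circ_0040809 had no control count and 47 TQ counts. The lower 99% limit of its ratio was 6.06. The MiaPaCa-2 libraries held 18 control and 11 TQ counts. The circle hsa_circ_0003287 had 25 control counts and no TQ count in PANC-1. The upper 99% limit of its ratio was 0.171, and it had 0 counts in both MiaPaCa-2 libraries. Of the 109 members at 0 in control, 21 had at least 20 counts in TQ, and of the 42 at 0 in TQ, 7 had at least 20 in control.

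By kind of identifier, of the 438 members with a circRNA serial number of the table and no circBase number, 66 were at 0 in one library (15.1%). The share was 4.52% of the 1283 members with a circBase number below 10000, 5.10% of the 510 with a number from 10000 on and 1.72% of the 58 ciRNA members. In MiaPaCa-2, 60 of the 109 at 0 in control (55.0%) and 28 of the 42 at 0 in TQ (66.7%) had a count, beside 1685 of the 2138 with counts in both (78.8%). Of the 151 members at 0, 123 had under 20 counts, as did 1351 of all 2289 members, and the part of abundance in these shares was not tested. Among members with counts in both libraries, the kinds had median ratios of 0.979, 0.934, 1.03 and 0.905, in the order circBase below 10000, circBase from 10000, circRNA and ciRNA.

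Just inside the rule, the 274 identifiers with 10 counts had a median of 5 in each library, 24 of them at 0 in control and 12 at 0 in TQ. Just outside it, the 286 with 9 counts had medians of 4 and 5, with 29 at 0 in control and 9 at 0 in TQ. For a typical member depth set a wide limit: the median sum was 17 counts, and the upper end of the 99% interval was 18.7 times the lower end for the median member with counts in both. At 10 to 19 counts that width was 34.7-fold, and at 200 counts or more it was 1.92-fold.

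Side by side with MiaPaCa-2, where line and dose differ together, the called circles had the following values. Of all 130 higher members, 34 had at least 10 counts in MiaPaCa-2, of which 3 were called higher and 4 lower there. Of all 73 lower members, 22 had that minimum, with 1 called higher and 3 lower. Of the 21 higher members with counts in both PANC-1 libraries, 14 had at least 10 counts in MiaPaCa-2. There, 0 of the 14 were higher and 1 was lower by the same rule, and their median ratio was 0.465. Over all 777 members with at least 10 counts in MiaPaCa-2, that median was 0.800, with 27 called higher (3.47%) and 64 lower (8.24%). Over the 1130 identifiers of MiaPaCa-2 with that minimum, 4.07% were higher and 6.55% lower. Of the 31 lower members, 12 had at least 10 counts in MiaPaCa-2, with 0 called in either direction and a median ratio of 1.05. These medians move with the relative scale of the MiaPaCa-2 TQ library, which was 0.417 here, 0.351 with total counts, 0.587 with TMM over every identifier and 0.806 with DESeq2 size factors. The median of the 12 lower members turned to the other side of 1 with the latter scales, at 0.743 and 0.542. That of the 14 higher members lay between 0.240 and 0.552 over all 4 scales. The median of all 777 members moved with the scale too, between 0.414 and 0.950. A median below 1 on each scale was thus not particular to the 14. The MiaPaCa-2 TQ library held 15819 counts, beside 45094 in its control. The difference between the lines was not tested, since each had 1 library per treatment.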

How the data were processed

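Whole-number counts per circRNA identifier, as the authors deposited them, were used for 4 libraries, and the values show no sign of normalisation. The submitters' processing notes list TopHat and TopHat2, Bowtie2, cutadapt, FastQC and edgeR with the build GRCh38.p13, and no caller of back-splices is named in these sources. Ribosomal RNA was depleted and linear RNA digested, per the labels' protocols. A total count therefore depends on depth and digestion together, and PCR copies could not be removed.

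Library scales came from TMM (edgeR 4.0.16, R 4.3.3) on the 827 identifiers passing filterByExpr over all 4 libraries, and the TQ scale was 1.38 times that of control in PANC-1. Intervals are exact conditional binomial (Clopper-Pearson, scipy 1.17.1, Python 3.11.15). Calls were tested on simulated data that held counting error only, so that the simulation cannot show how they fare with differences between libraries. No test was run between the PANC-1 libraries, since each group has 1. Alternatives were total counts, DESeq2 1.42.0 size factors, other TMM sets, other minimums, folds and intervals, and no ciRNA identifiers.

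Members to name were taken from 4 sets. These were the 15 most abundant members, the 10 higher and 10 lower calls with counts in both libraries whose interval lay farthest from 1, the 5 largest on each side of those at 0, and circles of a list of known hosts. Only a part of each set is printed in the text, and from the list those that show the range. Serial numbers of the table were printed for at most 2 members per direction. Hosts come from general knowledge of circBase, and their grouping by role was made after values were seen. The members and lists were chosen with earlier results of these data known.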

Additional observations from a re-analysis of the deposited data

Results flagged for a closer look

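Among the named members, 3 were called in opposite directions in PANC-1 and MiaPaCa-2, with 1 library per line and treatment, so that the difference was not tested. In PANC-1 control and TQ hsa_circ_0001278 had 25 and 79 counts, and in MiaPaCa-2 it had 60 and 4, a ratio of 0.160 (99% interval 0.0259 to 0.541) beside 2.29 (1.27 to 4.38). The identifier circRNA5825 had 0 and 63 counts in PANC-1 and 56 and 0 in MiaPaCa-2. The identifier circRNA2993 had 42 and 0 counts in PANC-1 and 0 and 22 in MiaPaCa-2. Dose and line differ together, and what caused these differences was not tested. A further named member was called lower in both lines, with 33 and 0 counts in PANC-1 and 44 and 5 in MiaPaCa-2. Of all 130 members called higher in PANC-1, 34 had at least 10 counts in MiaPaCa-2, of which 3 were called higher and 4 lower there. Of all 73 called lower, 22 had that minimum, of which 1 was called higher and 3 lower in MiaPaCa-2. Over the 777 members with that minimum, 3.47% were called higher and 8.24% lower there.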

How the results depend on the processing

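With 2 single libraries, counting error is the only error these intervals hold, and low counts limit most members. The numbers of members called higher and lower were 37 and 24 with a minimum of 20 counts and 10 and 6 with a minimum of 50, where fewer members were considered. With no minimum, 150 were lower, while the 130 higher calls stayed 130, since no zero under 10 counts can give a higher call. With an exact 95% interval, 171 were higher and 125 lower. Among members with counts in both libraries, TMM over every identifier gave 42 higher and 19 lower, the minimum of 50 counts 7 and 5, and the 95% interval 62 and 83. The minimum of 20 counts gave 16 higher and 17 lower there, and a fold of 3 gave 13 and 24. The median log2 ratio of members with counts in both was -0.05. It was 0.080 with DESeq2 size factors, 0.16 with TMM over every identifier and -0.12 with the median ratio of members with at least 100 counts. The lean of the 21 higher and 31 lower calls thus turned with the scale, to 31 and 27 with DESeq2 size factors. Of the 69 named ratios that were checked, TMM over every identifier moved 4 outside their 95% interval. Among these 69, the calls of LDLRAD3, ERBIN and USP25 changed, under it alone of 5 scales. The circle hsa_circ_0005598, named after its values were seen, was not among the 69. With TMM over every identifier, its 68 and 43 counts give a ratio above 0.5, so that its lower call would be lost. No paired analysis was possible because within PANC-1 each group has 1 library.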
